A study of Mus musculus with 23 samples.

Results

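Amino acids reach the brain through carrier proteins in the wall of its capillaries. Some of these carriers are light chains that need CD98hc, the heavy chain encoded by Slc3a2, to reach the cell surface. A set of 9 carriers that work without CD98hc was followed here: Slc7a1, Slc7a3, Slc38a2, Slc38a3, Slc38a5, Slc1a4, Slc1a5, Slc6a6 and Slc6a20a. They were taken by symbol from the gene list of the count matrix, where all 9 were found among 32285 genes.

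The cationic amino acid carriers Slc7a1 (CAT1) and Slc7a3 (CAT3) move arginine, lysine and ornithine. Slc38a2 (SNAT2) is a sodium-coupled carrier of small neutral amino acids, while Slc38a3 (SNAT3) and Slc38a5 (SNAT5) exchange glutamine and related amino acids for protons. Slc1a4 (ASCT1) and Slc1a5 (ASCT2) exchange alanine, serine, cysteine and, for ASCT2, glutamine. Slc6a6 (TauT) imports taurine, and Slc6a20a (SIT1) imports proline and other imino acids. In brain endothelium, CAT1 is known as the arginine carrier of the barrier, TauT as its taurine carrier, and the SNAT carriers as a route for glutamine.

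The samples were single cells of mouse brain, profiled by droplet RNA sequencing 24 hours after 45 mg/kg of an antibody labelled with the dye AF647 had been injected into the tail vein. ATV-TfR, an antibody transport vehicle (label DNP02_hIgG1_LALAPG_ATV35.23.2) that binds the transferrin receptor, was given to TfR mu/hu knock-in mice. ATV-CD98hc (a monovalent binder of CD98hc on the same antibody, LLB2-10-8) was given to CD98hc mu/hu knock-in mice, and the control IgG (DNP02_hIgG1_LALAPG) to C57BL/6J mice. Treatment and genotype coincide and cannot be told apart. The mice were 12 weeks old (3.3 months in the labels). Olfactory bulbs, cerebellum, pons and medulla were removed, and inhibitors of transcription and translation were present during dissociation. Live cells were sorted on AF647 into negative, low, medium and high bins, with gates set from the tertiles of the positive cells of ATV-TfR mice. Each treatment had 2 pools of 1 male and 1 female mouse, and each bin of a pool gave 1 library. Of 23 libraries, ATV-TfR and ATV-CD98hc had 8 each and control IgG had 7, and the negative library of its pool 1 was not analysed here.

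The genes lie on 7 chromosomes of GRCm38, with identifiers as in the files. Slc7a1 spans chr5:148327410-148399904, minus strand, ENSMUSG00000041313. Slc7a3 is X-linked (chrX:101079210-101086020, minus strand, ENSMUSG00000031297), as is Slc38a5 (chrX:8271133-8280179, plus strand, ENSMUSG00000031170). Slc38a2 spans chr15:96687392-96699730, minus strand, ENSMUSG00000022462. Slc38a3 (chr9:107650634-107669530, minus strand, ENSMUSG00000010064) and Slc6a20a (chr9:123634770-123678885, minus strand, ENSMUSG00000036814) share chromosome 9. Slc1a4 spans chr11:20302180-20332713, minus strand, ENSMUSG00000020142, Slc1a5 spans chr7:16781340-16798274, plus strand, ENSMUSG00000001918, and Slc6a6 spans chr6:91684053-91759066, plus strand, ENSMUSG00000030096.

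RefSeq promoter entries (GRCm38.p6) matched 5 of the 9 genes: Slc7a1, Slc38a2, Slc38a5, Slc1a4 and Slc6a20a. Sequence upstream of the annotated start is printed for 3 of them, because their RNA was highest in 3 different cell types below: Slc7a1 in endothelial cells (chr5:148399905-148400154), Slc1a4 in astrocytes (chr11:20332714-20332963) and Slc6a20a in pericytes (chr9:123678886-123679082), all on the minus strand.
Slc7a1: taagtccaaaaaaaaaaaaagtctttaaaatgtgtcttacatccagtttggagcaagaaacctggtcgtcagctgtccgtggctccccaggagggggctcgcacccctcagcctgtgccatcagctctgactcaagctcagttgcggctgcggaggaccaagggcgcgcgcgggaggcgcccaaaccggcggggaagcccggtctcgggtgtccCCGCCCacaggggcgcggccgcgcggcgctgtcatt
Slc1a4: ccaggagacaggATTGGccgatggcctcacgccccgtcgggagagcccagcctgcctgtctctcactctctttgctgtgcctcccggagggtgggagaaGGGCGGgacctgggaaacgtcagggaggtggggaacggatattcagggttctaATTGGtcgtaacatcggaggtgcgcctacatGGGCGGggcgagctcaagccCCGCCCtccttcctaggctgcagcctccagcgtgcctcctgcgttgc
Slc6a20a: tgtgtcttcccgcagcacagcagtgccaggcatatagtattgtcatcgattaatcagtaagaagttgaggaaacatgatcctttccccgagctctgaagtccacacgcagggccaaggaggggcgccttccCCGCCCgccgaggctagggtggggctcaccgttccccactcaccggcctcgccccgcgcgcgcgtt
Capitals mark matches on either strand to 5 motifs: GGGCGG (the GC box), CCAAT (the CAAT box), TATAAA (the TATA box), TGATGNAA (the amino acid response element bound by ATF4) and GGAAGTG (an ETS core), none of which contains another. GGGCGG was found in at least 1 upstream window of all 5 matched genes, against 32.7% of the 32851 RefSeq promoters of the same length. That share is per promoter, and the window of a second Slc7a1 start had no GGGCGG. The GC content of the windows with it exceeded that of 59.0% (Slc38a5) to 93.1% (Slc38a2) of promoters. The Slc38a5 window, chrX:8271131-8271380, lies almost wholly within the gene as located above. CCAAT, present in 33.8% of promoters, was found at 2 places in the Slc1a4 window alone, and TATAAA (12.4%) only in the window of a second Slc7a1 start. TGATGNAA (3.45%) and GGAAGTG (8.55%) had no match in these windows. The counts come from the 3' ends of transcripts, and do not show which start was used.

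The matrix held 1129743851 UMIs (unique molecular identifiers, 1 per captured RNA molecule), 1861238 to 90307818 per library. After filtering, 235772 cells were kept, 504 to 19397 per library, with a median of 2180.5 to 4890.5 UMIs per cell. Barcodes found in at least 2 libraries made up 5.78% of cells, and no pair of libraries shared more than 0.992% of the smaller one. Clusters were named by marker lists into 18 classes, written with the ending -like. In all 18, every marker of the class was higher than in the other cells. The same lists had named the clusters, so this describes the classes and does not test their names. The 9 carriers, the CD98 genes and the other carriers listed below were left out of the clustering, and unnamed clusters held 3.09% of cells. Levels are UMI counts scaled to 1000000 UMIs of the class (CPM), summed over the cells of a pool or a library with at least 20 such cells.

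Across the 18 classes the carriers divided into 3 that were highest in endothelial-like cells and 6 that were highest elsewhere. Because classes are clusters of the same cells, their levels are given as a description with no test. No share over all genes stands beside the counts of carriers by class. The level of a pool sums its bins, which a class fills unequally, so the order of classes depends on the mix of bins where a carrier differs between them. In the negative bins alone Slc7a1 was at 347 and Slc38a5 at 93.4 CPM in endothelial-like cells, still their highest class. Over all bins Slc6a6 was at 2232 ± 150.2 CPM (mean ± SD of 6 pools) in endothelial-like cells, with the pools at 2018 to 2468. Its next classes were border macrophage-like cells (344 ± 121) and neutrophil-like cells (239 ± 25.4), whose ranges lay below those of endothelial-like cells. Slc7a1 was at 664 ± 84.3 CPM in endothelial-like cells (581 to 783), above dividing cells (79.1 ± 30.1, n = 2 pools), T or NK cell-like cells (55.2 ± 39.8), B cell-like cells (52.1 ± 34.9) and pericyte-like cells (47.8 ± 18.4), whose pools overlapped among themselves. Slc38a5 was at 214 ± 99.0 CPM in endothelial-like cells, with a wide range of 140.4 to 410.2 and a median of 181. It stood at 7.90 ± 9.13 CPM in pericyte-like cells, and 7 classes, all of them neurons, immune or dividing cells, had no UMI of it. For these 3 carriers of taurine, arginine and glutamine, the endothelial-like pools did not overlap those of the next class.

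Astrocyte-like cells had the highest level of 2 carriers. Slc1a4 was at 165 ± 6.94 CPM there (n = 5 pools, 159 to 176), above dividing cells (50.7 ± 13.6) and pericyte-like cells (49.9 ± 6.53), and at 2.64 ± 0.490 CPM in endothelial-like cells. Slc38a3 was at 204 ± 19.8 CPM in astrocyte-like cells (179 to 225) and 179.9 ± 8.65 in endothelial-like cells (174 to 197), so the ranges of the pools overlapped. Oligodendrocyte precursor-like cells (91.2 ± 20.0) and choroid plexus epithelial-like cells (79.5 ± 17.4) came next. This glutamine carrier was the only one of the 9 whose pools overlapped between its highest and second highest class, a count given without the share over all genes.

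The mural and connective tissue classes led another 2. Slc6a20a was at 1351 ± 103 CPM in pericyte-like cells (n = 5 pools, 1252 to 1482), at 286 ± 175 in fibroblast-like cells with pools from 26.3 to 436, and at 2.01 ± 0.429 in endothelial-like cells. Slc38a2 was highest in fibroblast-like cells (659 ± 183 CPM, 498 to 986) and second in oligodendrocyte-like cells (389 ± 82.8). In the negative bins alone it was at 334 CPM in fibroblast-like cells, and oligodendrocyte-like cells were highest. It had UMIs in every class, with 116 ± 9.21 CPM in endothelial-like cells and its lowest level, 14.6 ± 3.36, in astrocyte-like cells. The remaining carriers were led by small classes. Slc1a5 was at 205 ± 47.9 CPM in B cell-like cells (136 to 257), at 106 ± 8.80 in pericyte-like cells (95.7 to 116), at 84.3 ± 38.4 in fibroblast-like cells (30.7 to 129.9) and at 2.86 ± 0.729 in endothelial-like cells. The place of fibroblast-like cells in this order depends on the bin, since their negative libraries were at 277 and 237 CPM in ATV-TfR and 252 and 316 in ATV-CD98hc, against 31.7 and 31.6 in the high libraries of ATV-CD98hc. Slc7a3 was at 43.0 ± 20.6 CPM in oligodendrocyte precursor-like cells (n = 3 pools, 27.4 to 66.3) and at 6.78 ± 1.09 in endothelial-like cells, the second highest class, with no UMI in B cell-, T or NK cell-, monocyte-, neutrophil- and smooth muscle-like cells. At Leiden resolution 0.5 its level in oligodendrocyte precursor-like cells was 10.2 CPM.

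**Figure D1:**
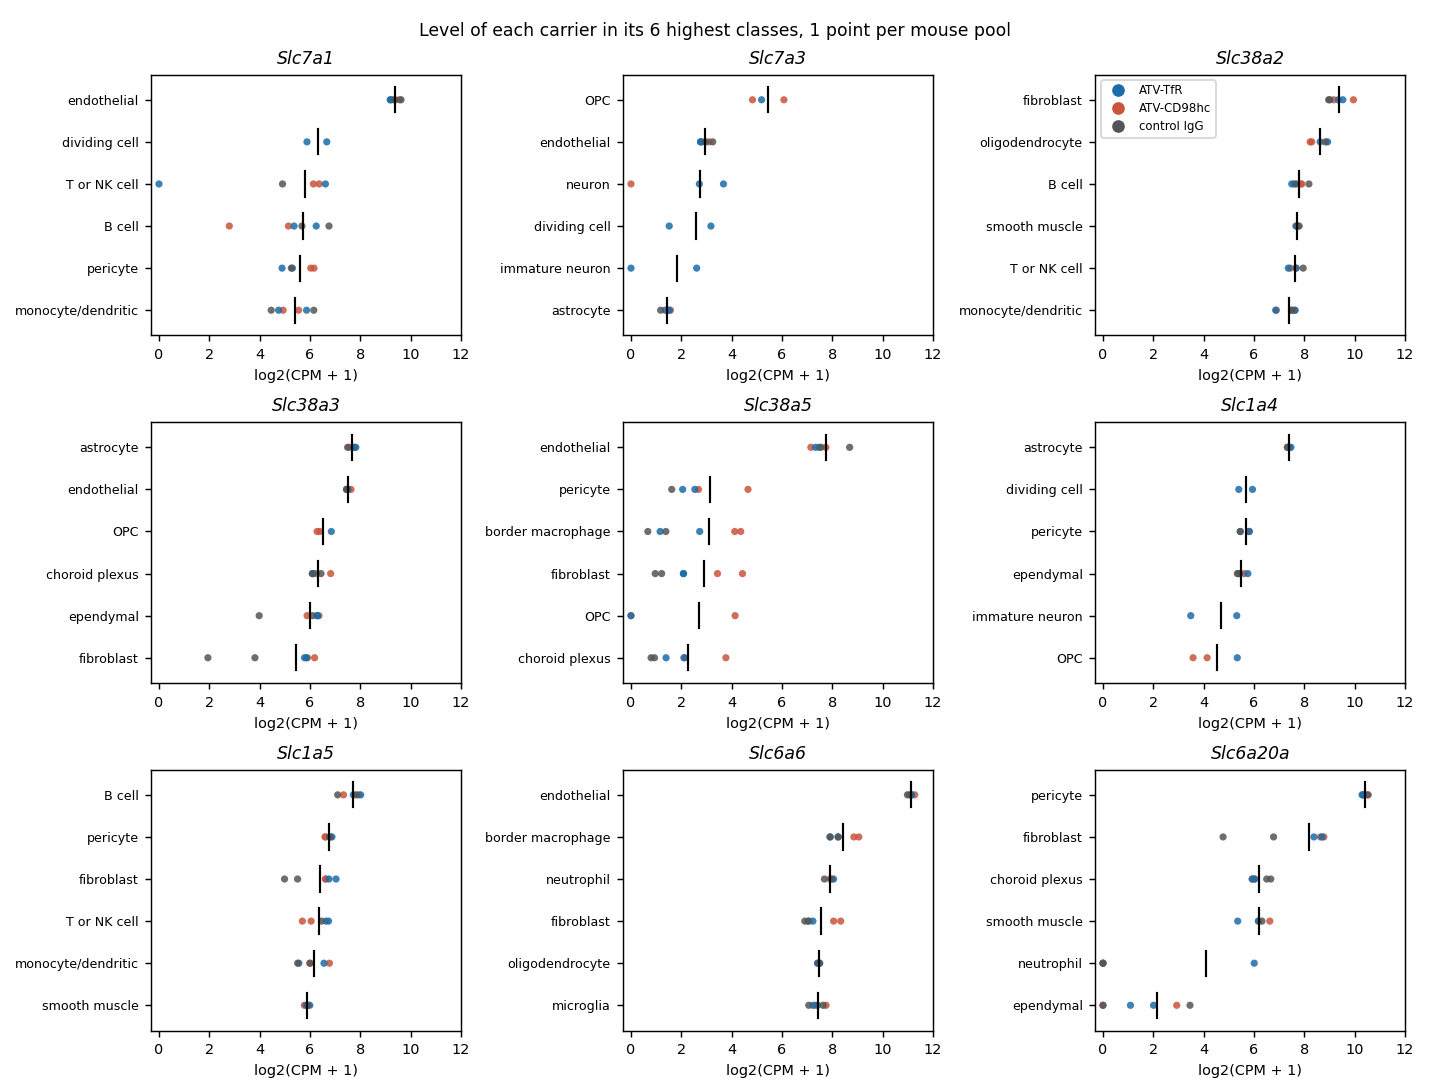
Level of each carrier in the 6 classes where it was highest, as log2(CPM + 1) on the horizontal axis, with 1 point per mouse pool coloured by treatment and a bar at the mean. Slc7a1, Slc38a5 and Slc6a6 were highest in endothelial-like cells, Slc6a20a in pericyte-like cells, Slc1a4 in astrocyte-like cells, and the pools of Slc38a3 overlapped between astrocyte- and endothelial-like cells.

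Within the endothelium, subclusters were named by marker lists as arterial-, capillary- or venous-like. All 5 capillary-like subclusters had the 8 capillary markers detected, but numbers 3, 4 and 7 had none of them among their 10 leading genes, and number 3, of 10986 cells, also had 1 arterial marker there, Sema3g. Being the one with more markers of another subtype than of its own among those genes, number 3 was set aside, and numbers 2, 4, 5 and 7, the others, are described and compared in place of the capillary-like class. As a ratio Slc38a5 varied the most along this axis, from 25.7 ± 9.78 CPM in arterial-like cells to 218 ± 46.7 in subclusters 2, 4, 5 and 7 and 441 ± 72.9 in venous-like cells (SD, n = 6 pools). The 3 ranges, 10.8 to 35.7, 165 to 298 and 365 to 571, did not overlap. Slc7a1 was at 764 ± 109 CPM in subclusters 2, 4, 5 and 7 (667 to 923), at 639 ± 52.0 in venous-like cells (562 to 693) and at 345 ± 27.9 in arterial-like cells (304 to 378), so that only the arterial-like pools stood apart. Slc38a3 was likewise lowest in arterial-like cells, with 205 ± 11.1 CPM in subclusters 2, 4, 5 and 7, 195 ± 28.995 in venous-like and 85.6 ± 17.0 in arterial-like cells. Slc7a3 was low everywhere, at 9.42 ± 1.23, 7.66 ± 0.831 and 2.73 ± 2.43 CPM in venous-like cells, these subclusters and arterial-like cells. The level of a pool sums its bins, which the subtypes fill unequally, so these levels depend on the mix of bins. Within arterial-like cells Slc7a1, Slc38a3 and the arterial and capillary markers differed between bins, as given below.

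The taurine carrier ran the other way. Slc6a6 was at 2797 ± 323 CPM in arterial-like cells (2185 to 3108), 2041 ± 124 in subclusters 2, 4, 5 and 7 (1919.9 to 2277) and 1938 ± 83.8 in venous-like cells, and the ranges of neighbours in this order overlapped. Slc38a2 was at 125 ± 26.8, 111 ± 9.13 and 105 ± 4.53 CPM in the same order, again with overlap. Slc1a5 was low but at 5.02 ± 1.26 CPM in arterial-like cells against 2.43 ± 1.02 in these subclusters, with no overlap. Slc1a4 (2.01 ± 0.366 CPM in these subclusters) and Slc6a20a (2.03 ± 0.511) were barely detected in any subtype.

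**Figure D2:**
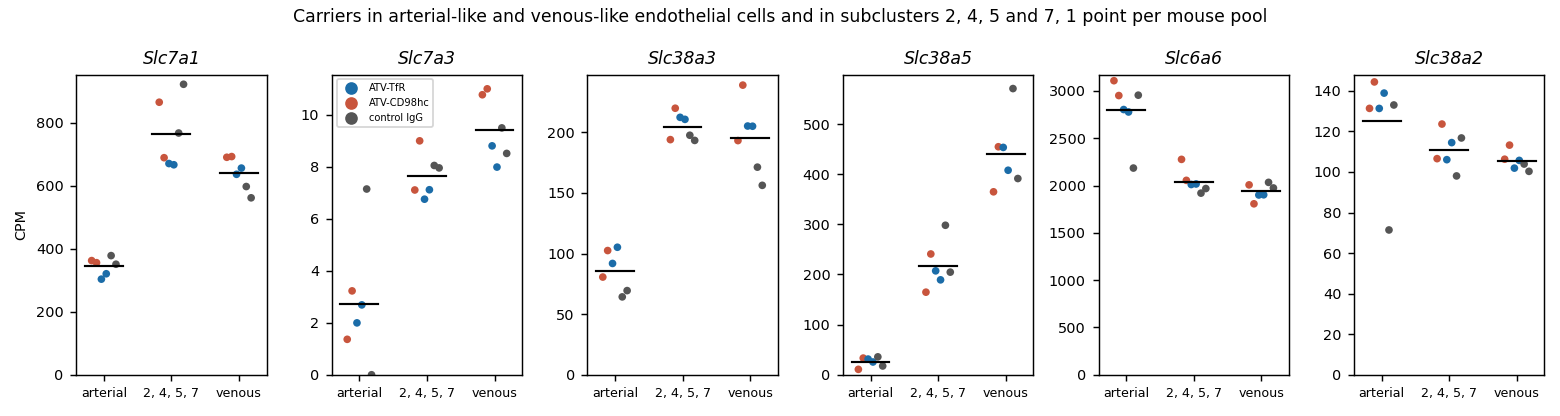
CPM of 6 carriers in arterial-like and venous-like endothelial cells and in subclusters 2, 4, 5 and 7, with 1 point per mouse pool (all bins summed) coloured by treatment and a bar at the mean. Slc7a1, Slc38a3 and Slc38a5 were lowest in arterial-like cells in the pools, while the arterial-like pools of Slc6a6 lay at 2185 to 3108.

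The sort asked which cells had bound or taken up antibody, so the first comparison of bins was between endothelial-like cells of the high and the negative bin. The arginine carrier Slc7a1 and the glutamine carrier Slc38a3 were higher in the high bin of both ATVs. In ATV-TfR mice Slc7a1 was at 286 and 156 CPM in the 2 negative libraries (pool 1, then pool 2), 174 and 174 in the low, 384 and 384 in the medium and 611 and 615 in the high libraries. The high libraries lay above all others and the negative and low ones below the medium ones. High minus negative was a log2 difference of 1.59 ± 0.23 (SE), a 3.02-fold difference (edgeR's quasi-likelihood test with Benjamini-Hochberg adjustment, adjusted p = 2.96e-05). In ATV-CD98hc mice it was at 325 and 235 CPM in the negative, 407 and 421 in the low, 746 and 625 in the medium and 790.2 and 648 in the high libraries. Here the medium and high libraries overlapped and the negative ones were lowest, with a log2 difference of 1.50 ± 0.23 (edgeR adjusted p = 1.35e-04).

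Slc38a3 was at 77.1 and 73.2 CPM in the negative, 67.4 and 75.1 in the low, 132 and 123 in the medium and 186 and 188 in the high libraries of ATV-TfR. The log2 difference was 1.47 ± 0.25 (edgeR adjusted p = 3.94e-04). In ATV-CD98hc mice it was at 45.8 and 118 CPM in the negative, 135 and 147 in the low, 170.4 and 199.5 in the medium and 183 and 200.04 in the high libraries, a log2 difference of 1.54 ± 0.28 (edgeR adjusted p = 0.00101). In both treatments the high libraries lay above the negative ones without overlap.

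These were the 2 of 9 carriers called in each treatment (adjusted p under 0.05), against 5.86% of the 15261 genes tested in ATV-TfR and 3.91% in ATV-CD98hc. All 9 had passed the filter on low counts. The median log2 difference of the 9 was 0.68 in ATV-TfR and 1.50 in ATV-CD98hc, beside 0.16 and 0.21 over all genes. These medians include fitted values of carriers with no UMI in the negative libraries, Slc7a3 in both treatments and Slc6a20a in ATV-CD98hc. Over the 8 and 7 carriers with a UMI in both bins the medians were 0.39 and -0.31, so in ATV-CD98hc the sign was the other. The called genes split into 285 upward (1.87%) and 610 downward for ATV-TfR and into 197 (1.29%) and 400 for ATV-CD98hc. With DESeq2 size factors in place of TMM these splits became 157 and 730, and 108 and 466, and the all-gene medians -0.01 and 0.03. Slc7a1 was then at 1.42 and 1.32, and Slc38a3 at 1.30 and 1.36, all still called.

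The calls rest on few cells, since the negative libraries held 77 and 52 endothelial-like cells in ATV-TfR and 71 and 49 in ATV-CD98hc. Without pool 2 of ATV-TfR, where 1 library per bin is left and assumed to vary like the other groups, Slc7a1 was at 1.23 (edgeR adjusted p = 0.0749) and Slc38a3 at 1.41 (adjusted p = 0.143). Without pool 1 of ATV-TfR, Slc7a1 was at 2.26 (adjusted p = 0.00177) and Slc38a3 at 1.64 (adjusted p = 0.095), and without pool 1 of ATV-CD98hc, Slc38a3 was at 0.94 (adjusted p = 0.225), against 1.54 with both. Slc38a3 was at 2.11 in ATV-TfR at Leiden resolution 0.5, and called. With a minimum of 50 cells 1 negative library of ATV-CD98hc is left, the arm is assumed to vary like the other groups, and Slc38a3 was at 2.22 there.

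Slc38a5, the other glutamine carrier of the barrier, was at 129 and 32.0 CPM in the negative, 50.8 and 51.1 in the low, 81.2 and 73.6 in the medium and 189 and 171 in the high libraries of ATV-TfR. In ATV-CD98hc it was at 26.7 and 163 CPM in the negative, 83.4 and 107 in the low, 122 and 176 in the medium and 174 and 269.6 in the high libraries. The 2 negative libraries of each treatment lay far apart, and high minus negative missed the threshold at 1.196 ± 0.44 (edgeR adjusted p = 0.133, 95% interval 0.28 to 2.11) and 1.62 ± 0.49 (adjusted p = 0.0712, interval 0.61 to 2.64). With the pool as a replicate block, which uses that all bins of a pool come from the same animals, it was called in both, at 1.19 (edgeR adjusted p = 1.36e-04) and 1.61 (adjusted p = 7.14e-06). The block also moved the number of genes called from 895 to 1425 in ATV-TfR and from 597 to 967 in ATV-CD98hc.

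The taurine carrier Slc6a6 was not called. In ATV-TfR it was at 2517 and 2847 CPM in the negative and 2209.8 and 2222 in the high libraries, a log2 difference of -0.12 ± 0.17 with a 95% interval of -0.48 to 0.25. In ATV-CD98hc it was at 3147 and 2847 CPM in the negative and 2261 and 2042 in the high libraries (-0.31 ± 0.17, interval -0.67 to 0.05). In both, the high libraries lay below the negative ones without overlap, and DESeq2 called Slc6a6 lower, at -0.29 (DESeq2 adjusted p = 0.0292) and -0.50 (adjusted p = 1.07e-05). Slc38a2 was at 146 and 174 CPM in the negative and 112 and 118 in the high libraries of ATV-TfR (-0.30 ± 0.20, interval -0.71 to 0.11). Slc38a2 in ATV-CD98hc was at 179 and 189 CPM in the negative and 106 and 124 in the high libraries (-0.50 ± 0.20, edgeR adjusted p = 0.223), and DESeq2 called it lower there, at -0.68 (adjusted p = 0.0294).

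The other 4 carriers had few UMIs in endothelial-like cells. Slc7a3 had none in the 4 negative libraries, where 3 UMIs would be 8.57 to 19.6 CPM, and 6.23 and 6.29 CPM in the high libraries of ATV-TfR and 7.18 and 9.54 in those of ATV-CD98hc, so a difference was not detectable at this depth. Slc1a5 was at 11.5 and 6.53 CPM in the negative and 1.90 and 2.23 in the high libraries of ATV-CD98hc (-2.04 ± 0.81, edgeR adjusted p = 0.226), and DESeq2 called it lower, at -2.22 (adjusted p = 0.0474). Slc1a4 and Slc6a20a had log2 differences of 0.10 ± 1.41 and 0.68 ± 1.48 in ATV-TfR, with errors larger than the differences.

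The change over the bins was next compared between the 2 ATVs. In high minus negative, edgeR called none of the 9 carriers and none of the 15261 genes (0%) between ATV-CD98hc and ATV-TfR, with 614 genes at an unadjusted p under 0.05 and 5 called by DESeq2. The difference of the changes was -0.09 ± 0.32 for Slc7a1 (95% interval -0.75 to 0.57) and 0.07 ± 0.39 for Slc38a3 (-0.75 to 0.89), and these intervals bound what was measured rather than show that the changes were alike.

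Because so few endothelial-like cells were in the negative bins, high was also compared with low (314 and 212 cells in ATV-TfR, 1950 and 2204 in ATV-CD98hc). More genes were called there, 13.7% in ATV-TfR and 14.8% in ATV-CD98hc, and 2 carriers were lower in the high bin of both treatments, while 3 were higher in both and Slc7a3 in ATV-CD98hc. The shares called upward and downward over all genes were 3.32% and 10.4% for ATV-TfR, and 2.15% and 12.6% for ATV-CD98hc. DESeq2 size factors moved the all-gene median from 0.05 to -0.07 and from 0.04 to -0.07. Slc7a1 was higher by 1.93 ± 0.21 in ATV-TfR (edgeR adjusted p = 2.79e-07) and by 0.92 ± 0.20 in ATV-CD98hc (adjusted p = 0.00116). Slc38a3 was higher by 1.52 ± 0.21 in ATV-TfR (edgeR adjusted p = 1.12e-05) and by 0.56 ± 0.18 in ATV-CD98hc (adjusted p = 0.0386). Slc38a5 was higher by 1.94 ± 0.40 (edgeR adjusted p = 0.00119) and 1.35 ± 0.34 (adjusted p = 0.00539). Slc7a3 was at 3.76 and 3.10 CPM in the low and 7.18 and 9.54 in the high libraries of ATV-CD98hc (1.43 ± 0.30, edgeR adjusted p = 0.00129). In ATV-TfR the low libraries held 1 UMI of it in all (1.04 and 0 CPM, where 3 UMIs would be 3.11 and 4.51), so its 6.23 and 6.29 CPM in the high libraries are given without a call.

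The 2 that were lower are the exchangers of the ASC type. Slc1a4, the astrocyte-led one, was at 7.26 and 9.01 CPM in the low and 1.96 and 1.40 in the high libraries of ATV-TfR (-2.13 ± 0.54, edgeR adjusted p = 0.00752). Slc1a4 in ATV-CD98hc was at 8.63 and 13.4 CPM in the low and 1.53 and 1.41 in the high libraries (-2.79 ± 0.33, adjusted p = 7.09e-07). Slc1a5 was at 10.4 and 7.51 CPM in the low and 3.41 and 3.02 in the high libraries of ATV-TfR (-1.39 ± 0.44, edgeR adjusted p = 0.0386) and at 5.75 and 3.92 CPM in the low and 1.90 and 2.23 in the high libraries of ATV-CD98hc (-1.07 ± 0.32, adjusted p = 0.0232). Astrocyte markers moved with them: the summed level of the 10 markers in endothelial-like cells (the lower library first, as for all marker sums) was 1145 and 1173 CPM in the low and 135 and 142 in the high libraries of ATV-TfR, and 825 and 1118 CPM in the low and 111 and 125 in the high libraries of ATV-CD98hc. Over the pools Slc1a4 was at 165 and Slc1a5 at 2.07 CPM in astrocyte-like cells, against 2.64 and 2.86 in endothelial-like cells. The part of astrocyte RNA in these values was not tested. Slc6a6 (-0.15 and -0.11) and Slc38a2 (-0.08 and -0.06) were not called.

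Several of these calls depend on 1 pool. In ATV-TfR, leaving out pool 1 gave Slc38a5 2.01 (adjusted p = 0.0986), Slc1a4 -2.41 (adjusted p = 0.119) and Slc1a5 -1.04 (adjusted p = 0.556) by edgeR. Leaving out pool 2 gave 2.03 (adjusted p = 0.0751), -1.75 (adjusted p = 0.26) and -1.46 (adjusted p = 0.205) for the same 3, while Slc7a1 and Slc38a3 stayed called. In ATV-CD98hc, without pool 2, Slc38a3 was at 0.52 (adjusted p = 0.0671) and Slc7a3 at 1.01 (adjusted p = 0.0942), and without pool 1, Slc1a5 was at -0.67 (adjusted p = 0.39). With a pool of another treatment left out, which changes the shared spread, Slc38a3 in ATV-CD98hc was at 0.62 (adjusted p = 0.147) without pool 1 of ATV-TfR and 0.58 (adjusted p = 0.182) without its pool 2. Slc1a5 was then at -1.02 (adjusted p = 0.0681) in ATV-CD98hc without pool 1 of ATV-TfR and at -1.23 (adjusted p = 0.0674) in ATV-TfR without pool 1 of control IgG. With DESeq2 size factors Slc38a3 in ATV-CD98hc was at 0.46 (adjusted p = 0.124). DESeq2 itself did not call Slc38a5 in ATV-CD98hc, at 1.25 (adjusted p = 0.249), and it called Slc6a6 lower in ATV-TfR, at -0.27 (adjusted p = 0.0183). Slc1a5 in ATV-TfR was at -1.32 (adjusted p = 0.0523) with libraries of at least 50 cells, -1.17 (adjusted p = 0.0846) at Leiden resolution 0.5 and -1.17 (adjusted p = 0.0982) without the filter on low counts, and in ATV-CD98hc at -0.94 (adjusted p = 0.0519) without that filter.

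From the medium to the high bin, 4 carriers were higher and 1 lower in ATV-TfR, where 10.4% of genes were called, 0.839% higher and 9.6% lower. They were Slc7a1 (0.75 ± 0.20, edgeR adjusted p = 0.0107), Slc38a3 (0.62 ± 0.18, adjusted p = 0.0261), Slc38a5 (1.29 ± 0.34, adjusted p = 0.0107) and Slc7a3 (1.51 ± 0.30, adjusted p = 0.00134), with Slc1a4 lower (-2.17 ± 0.32, adjusted p = 2.79e-05). Without pool 1 of ATV-TfR, Slc7a1 was at 0.88 (adjusted p = 0.146), Slc38a3 at 0.80 (adjusted p = 0.36) and Slc38a5 at 1.41 (adjusted p = 0.281). Without pool 2 they were at 0.78 (adjusted p = 0.265), 0.60 (adjusted p = 0.771) and 1.33 (adjusted p = 0.351), and Slc7a3 at 1.29 (adjusted p = 0.186). With the pool as a block Slc6a20a was also called, at 1.18 (adjusted p = 0.0315) by edgeR. DESeq2 did not call Slc38a5 there (1.24, adjusted p = 0.33). In ATV-CD98hc, where 3.85% of genes were called, edgeR called no carrier between medium and high (1258 genes had an unadjusted p under 0.05, and DESeq2 called no carrier either). With the pool as a block 4 were called there: Slc38a5 at 0.58 (edgeR adjusted p = 8.12e-04), Slc7a3 at 0.47 (adjusted p = 0.00865), Slc1a4 at -0.75 (adjusted p = 0.00949) and Slc1a5 at -0.64 (adjusted p = 0.0116). The 10.4% and 3.85% of genes are from fits without the block. With it more genes were called in both ATVs, as counted in the last section.

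The make-up of the endothelial-like cells changed with the bins. Arterial-like cells were 74.0% and 75.0% of them in the negative, 67.2% and 67.0% in the low, 40.5% and 44.6% in the medium and 13.6% and 13.8% in the high libraries of ATV-TfR. In ATV-CD98hc they were 63.4% and 53.1% in the negative, 33.6% and 31.4% in the low, 7.59% and 16.01% in the medium and 5.75% and 11.4% in the high libraries. Up to 47.2% of the endothelial-like cells of a library lay in subclusters left without a name. As Slc7a1, Slc38a3 and Slc38a5 were lowest and Slc6a6 highest in arterial-like cells, the comparison was repeated in that subtype alone.

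In arterial-like cells Slc7a1 and Slc38a3 were again higher in the high bin of both ATVs. Slc7a1 was at 82.4 and 48.9 CPM in the negative, 90.5 and 94.3 in the low, 233 and 229 in the medium and 358 and 377 in the high libraries of ATV-TfR, with no overlap between the low, medium and high bins. High minus negative was 2.59 ± 0.25 (edgeR adjusted p = 4.62e-09), with 6.33% of 13375 genes called. In ATV-CD98hc it was at 114 and 84.5 CPM in the negative, 165 and 191 in the low, 377 and 344 in the medium and 526 and 456 in the high libraries (2.40 ± 0.26, adjusted p = 8.67e-08, 3.39% of genes called). Slc38a3 was at 17.3 and 38.0 CPM in the negative and 104 and 116 in the high libraries of ATV-TfR (2.18 ± 0.39, edgeR adjusted p = 2.22e-04). In ATV-CD98hc it was at 17.1 and 42.2 CPM in the negative and 104 and 110.4 in the high libraries (2.19 ± 0.47, adjusted p = 0.00353). These were the 2 carriers called there, and Slc6a6 was not. Slc6a6 was at 2789 to 2839 CPM in the negative and 2730 to 2764 in the high libraries of ATV-TfR. In ATV-CD98hc Slc6a6 was at 3126 to 3411 CPM in the negative and 2647 to 2791 in the high libraries. The negative libraries held 57 and 39 arterial-like cells in ATV-TfR and 45 and 26 in ATV-CD98hc. The calls of Slc7a1 and Slc38a3 thus rest on few cells, and no pool was left out to check them. Slc38a5, at 2.70 and 2.01 CPM in the low and 40.5 and 32.0 in the high libraries of ATV-TfR, had 3 UMIs in all in the low ones and is given without a call. In ATV-CD98hc it was at 4.23 and 6.85 CPM in the low and 19.4 and 36.1 in the high libraries, higher by 2.41 ± 0.49 (edgeR adjusted p = 5.92e-04, 9.95% of genes called). Between low and high, edgeR called 3 carriers upward, counting Slc38a5, and 1 downward in each ATV (11.5% of genes in ATV-TfR). From medium to high the counts were the same in ATV-TfR (6.2% of genes). Slc7a3 was among them (2.87 ± 0.80, edgeR adjusted p = 0.0224), but at 0.281 to 0.596 CPM in the medium libraries. Slc1a4 was at 6.76 to 8.02 CPM in the low and 1.02 to 1.34 in the high libraries of ATV-TfR. In ATV-CD98hc it was at 8.45 to 11.7 and 0.463 to 2.58 CPM.

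The cells named arterial-like were not alike across the bins. Within them the summed level of the 10 arterial markers was 7873 and 8654 CPM in the negative and 1173 and 1406 in the high libraries of ATV-TfR, and 5372 and 8787 CPM in the negative and 1193 and 1558 in the high libraries of ATV-CD98hc. The 8 capillary markers were at 2173 and 2242 CPM in the negative and 7686 and 8273 in the high libraries of ATV-TfR, and at 1986 and 2802 CPM in the negative and 8017 and 8489 in the high libraries of ATV-CD98hc. Astrocyte markers were at 1141 and 1455 CPM in the negative and 149.9 and 153 in the high libraries of ATV-TfR, and at 614 and 1024 CPM in the negative and 149.8 and 156 in the high libraries of ATV-CD98hc. The part of these shifts in the levels of Slc7a1, Slc38a3 and Slc38a5 was not tested.

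Subclusters 2, 4, 5 and 7 held 8 to 15 cells in the negative libraries of the ATVs, too few for that comparison, and were compared from the first bin in which both libraries held at least 20. In ATV-TfR Slc7a1 was at 605 and 597 CPM in their medium and 673 and 669 in their high libraries (0.31 ± 0.19, edgeR adjusted p = 0.577, 95% interval -0.09 to 0.72). In ATV-CD98hc it was at 759 and 629 CPM in the low, 867 and 702 in the medium and 865 and 679.8 in the high libraries (high minus low 0.32 ± 0.19, adjusted p = 0.517, interval -0.09 to 0.72). Slc38a3 was at 219 and 227 CPM in the low and 199 and 217 in the high libraries of ATV-CD98hc (0.06 ± 0.18 after TMM scaling, adjusted p = 0.927, interval -0.33 to 0.45). Neither carrier was called there, and whether they differed from the whole class was not tested. Slc38a5 was not called either, at 0.98 ± 0.27 from medium to high in ATV-TfR (edgeR adjusted p = 0.0871) and 0.69 ± 0.26 from low to high in ATV-CD98hc (adjusted p = 0.206). The carrier called in these subclusters was Slc1a4, with a difference of -1.94 ± 0.46 between medium and high in ATV-TfR (edgeR adjusted p = 0.0422, 2.46% of 14606 genes called) and of -2.36 ± 0.49 between low and high in ATV-CD98hc (adjusted p = 0.00876, 5.77%). Astrocyte markers in them stood at 412 and 586 CPM in the medium and 133 and 136 in the high libraries of ATV-TfR, and at 554 and 968 in the low and 108 and 119 in the high libraries of ATV-CD98hc. No carrier was called in venous-like cells by edgeR, where 3.13% of genes were called between low and high in ATV-CD98hc and 2.35% between medium and high in ATV-TfR.

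**Figure D3:**
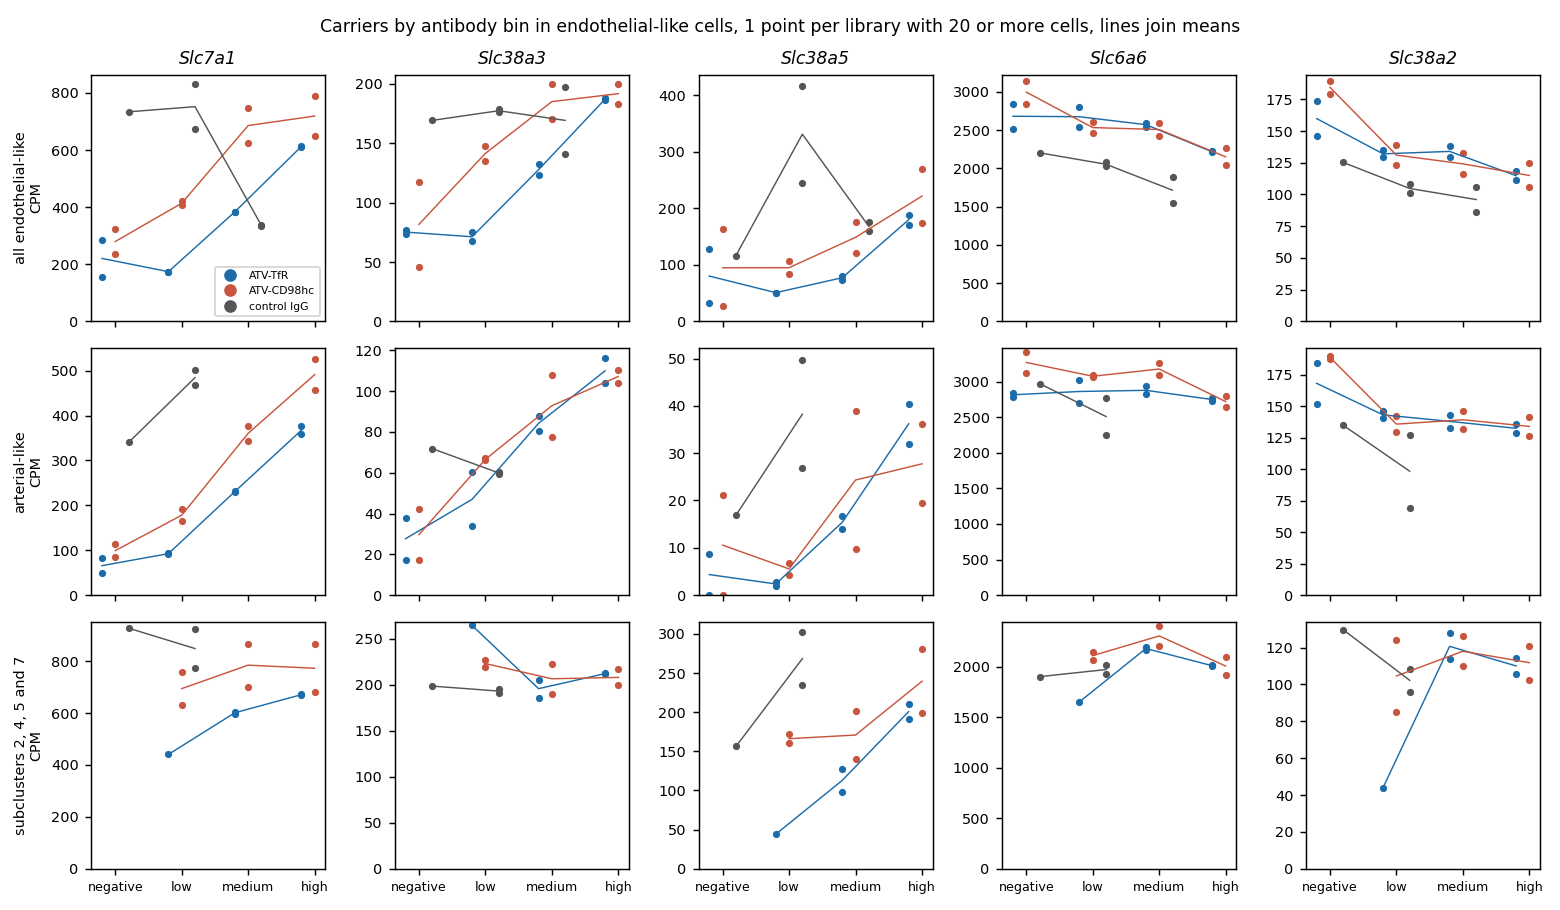
CPM of 5 carriers by antibody bin in all endothelial-like cells (top row), arterial-like cells (middle) and subclusters 2, 4, 5 and 7 (bottom), with 1 point per library of at least 20 cells and lines joining the means of a treatment. Slc7a1 and Slc38a3 were higher in the high than in the low bin in the whole class and in arterial-like cells. In the bottom row the low, medium and high libraries of ATV-CD98hc lay at 629 to 867 CPM for Slc7a1 and 190 to 227 for Slc38a3. Those of ATV-TfR had Slc7a1 at 441 CPM in the 1 low library, 597 and 605 in the medium and 669 and 673 in the high libraries. Slc38a3 was there at 264 in the low, 186 and 206 in the medium and 211 and 213 in the high libraries.

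Control IgG gave a comparison of bins without a receptor binder, but its high bin held 10 and 14 endothelial-like cells and could not be tested. Slc7a1 was at 734 CPM in its 1 negative library, 673 and 831 in the low and 333 and 338 in the medium libraries (26 and 36 cells). Low minus negative was 0.04 ± 0.24 (95% interval -0.45 to 0.54), where the 1 negative library has no spread of its own and is assumed to vary like the other groups, as for each test of control IgG here. Its negative library, with 2510 endothelial-like cells of which 13.5% were arterial-like, thus lay above the negative libraries of both ATVs. Slc38a5 was at 116 CPM in the negative and 417 and 245 in the low libraries (1.51 ± 0.43, edgeR adjusted p = 0.0449), the only carrier of 9 past the threshold, with 4.82% of genes called (0.544% higher). Venous-like cells were 49.0% and 17.6% of the low libraries and 6.37% of the negative one. Without pool 1 of control IgG the difference was 1.10 (adjusted p = 0.415), without pool 1 or 2 of ATV-TfR 1.57 (adjusted p = 0.149) and 1.55 (adjusted p = 0.144), and DESeq2 gave an adjusted p of 0.458.

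The treatments were then compared. In the high bin, edgeR called no carrier between ATV-CD98hc and ATV-TfR in endothelial-like cells (0.19% of genes called, 553 genes at an unadjusted p under 0.05, and 0 carriers by DESeq2). Slc7a1 differed by 0.24 ± 0.19 (95% interval -0.16 to 0.64), Slc38a3 by 0.05 ± 0.18 (-0.33 to 0.42), Slc38a5 by 0.32 ± 0.33 (-0.35 to 1.00) and Slc6a6 by -0.03 ± 0.17 (-0.39 to 0.32). Slc1a5 was the one whose interval left out 0 (-1.18 to -0.06), with an adjusted p of 0.999. Without pool 2 of ATV-CD98hc, 1 library was left in its high bin, 1770 genes were called and 1 carrier, Slc6a20a, was among them, at -1.18 (adjusted p = 0.0306). In the fit with all pools Slc3a2, the target of ATV-CD98hc, was at -1.06 ± 0.20 (edgeR adjusted p = 0.0265) and Tfrc, the target of ATV-TfR, at 1.29 ± 0.20 (adjusted p = 0.00475). Each was lower in its own knock-in line, and how reads of the humanised transcripts were counted was not tested.

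Over all bins, summed per pool, edgeR called no carrier and none of 16743 genes (0%) in any of the 3 pairs of treatments. At an unadjusted p under 0.05 there were 827 genes for ATV-CD98hc minus control IgG, 1236 for ATV-TfR minus control IgG and 415 for ATV-CD98hc minus ATV-TfR, and DESeq2 called 96, 183 and 12, with no carrier among them. The 2 comparisons with control IgG share its pools. A pool sums its bins, and these held unlike numbers of endothelial-like cells. The high bin held 16602 and 15428 of them in ATV-TfR and 8961 and 11652 in ATV-CD98hc, but 10 and 14 in control IgG. Pool 1 of control IgG also lacked its negative library here. Treatment and the mix of bins cannot be told apart in these sums. Slc7a1 differed by -0.07 ± 0.19 in ATV-CD98hc (95% interval -0.51 to 0.37) and -0.24 ± 0.19 in ATV-TfR (-0.67 to 0.20). Slc38a3 differed by 0.09 ± 0.17 (-0.30 to 0.49) and 0.11 ± 0.17 (-0.29 to 0.50), and Slc6a6 by 0.20 ± 0.22 (-0.30 to 0.69) and 0.19 ± 0.22 (-0.31 to 0.69). Slc38a5 had the widest intervals of the abundant carriers, -1.64 to 0.15 and -1.66 to 0.13. Changes smaller than these intervals were not detectable with 2 pools per treatment.

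**Figure D4:**
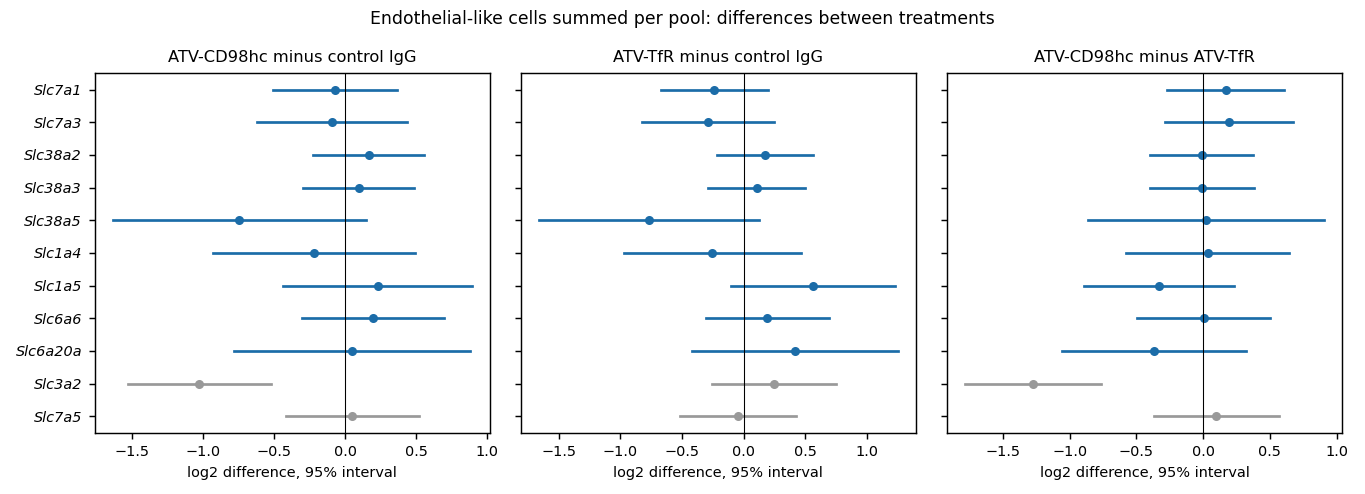
Log2 difference over all bins in endothelial-like cells for each pair of treatments, with 95% intervals from edgeR, for the 9 carriers (blue) and for Slc3a2 and Slc7a5 (grey). The intervals of all 9 carriers include 0.

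Other genes of amino acid transport give the setting of these values. Their counts stand beside 5.86% of all genes called between the high and negative bins in ATV-TfR (1.87% higher) and 3.91% in ATV-CD98hc (1.29% higher). Between the high and low bins 3.32% of all genes were higher and 10.4% lower for ATV-TfR, with 2.15% and 12.6% for ATV-CD98hc. Of the CD98 complex, 7 genes were tested, and in both ATVs 2 were higher and 0 lower in the high than in the negative bin: Slc3a2 (1.48 ± 0.23 in ATV-TfR and 1.81 ± 0.28 in ATV-CD98hc) and its light chain Slc7a5 (1.94 ± 0.27 and 1.97 ± 0.28). The median of the 7 was -1.20 and -0.90, beside 0.16 and 0.21 over all genes. Between low and high, ATV-TfR had 2 of them higher and 3 lower, ATV-CD98hc 2 and 4, with medians of -1.11 and -0.89 beside 0.05 and 0.04 over all genes. Of 39 other amino acid carriers, 21 were tested, and Slc1a1, a carrier of glutamate and cysteine, was the 1 called higher (2.07 ± 0.28, edgeR adjusted p = 1.92e-05 and 1.32 ± 0.27, edgeR adjusted p = 0.00425). In ATV-CD98hc 2 were lower, Slc1a2, a glutamate carrier of astrocytes (-3.49 ± 0.54, edgeR adjusted p = 1.55e-04), and Slc16a10, a carrier of aromatic amino acids (-4.29 ± 1.01, edgeR adjusted p = 0.0139), where astrocyte markers were at 508 and 705 CPM in the negative and 111 and 125 in the high libraries. The list's medians were -0.48 and 0.16. Between low and high, 2 of the 21 were higher and 7 lower in each ATV, with Slc6a11, Slc1a3 and Slc1a2 among the 5 list genes of smallest adjusted p in both. Slc1a2 and Slc1a3 are glutamate carriers of astrocytes, and the summed astrocyte markers in the same cells went from 1145 and 1173 to 135 and 142 CPM in ATV-TfR and from 825 and 1118 to 111 and 125 in ATV-CD98hc. Their part in the list's count was not tested. Of 24 tested genes of the amino acid response, 0 were higher in the high than in the negative bin of either ATV, and the 1 lower was Nupr1 in ATV-TfR (-3.93 ± 0.71, edgeR adjusted p = 6.64e-04), with medians of 0.17 and 0.01. Between low and high, 0 were higher and 4 and 5 lower.

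In astrocyte-like cells, which held 1437 to 14987 cells per library in the negative and low bins of both ATVs, low was compared with negative. In ATV-TfR edgeR called no carrier (1.31% of 16039 genes called, 996 at an unadjusted p under 0.05, and 0 carriers by DESeq2). In ATV-CD98hc Slc6a6 was called higher (3.42% of genes called, 2.1% higher), at 3.90 and 4.90 CPM in the negative and 15.4 and 15.1 in the low libraries (1.88 ± 0.30, edgeR adjusted p = 8.00e-04). The difference was 3.68 with doublets kept and 1.02 at Leiden resolution 0.5. The 10 endothelial markers in the same cells were at 24.7 and 25.8 CPM in the negative and 132 and 133 in the low libraries. Slc38a5, without a UMI in the negative libraries, was at 0.352 and 0.626 CPM in the low ones. It could pass the filter on low counts only through other libraries, so its levels are given without a call. The astrocyte-led carriers were not called. Slc1a4 was at 154 and 164 CPM in the negative and 159.8 and 161 in the low libraries (0.05 ± 0.10, interval -0.16 to 0.26) and Slc38a3 at 171 and 230.4 CPM in the negative and 196 and 216 in the low libraries (0.08 ± 0.14, interval -0.20 to 0.37).

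Between the negative and the high bin edgeR called endothelium-led carriers higher in several other classes. In astrocyte-, pericyte-, microglia- and choroid plexus epithelial-like cells Slc38a5 had no UMI in the negative libraries of either ATV, so it could pass the filter on low counts only through other libraries, and its levels are given without a call. In astrocyte-like cells 3 of the other 8 were called higher in each ATV. In those of ATV-TfR, Slc6a6 was at 4.89 and 5.68 CPM in the negative and 154 and 113 in the high libraries (4.78 ± 0.29, edgeR adjusted p = 9.42e-10, 27% of genes called, 15.4% higher). Slc7a1 was at 3.11 and 4.62 CPM in the negative and 36.2 and 34.2 in the high libraries (3.28 ± 0.23, adjusted p = 4.78e-09), and Slc38a5 at 12.3 and 10.1 CPM in the high libraries. The summed endothelial markers were at 21.0 and 22.5 CPM in the negative and 1610.3 and 2031 in the high libraries, with at most 1 of the 10 without a UMI in a negative library. At Leiden resolution 0.5 Slc7a1 was at 0.96 (adjusted p = 0.0538) and Slc6a6 at 1.86 (adjusted p = 0.000118), and with doublets kept at 4.34 and 5.40. Slc1a4 was called as well, at 155 and 158 CPM in the negative and 188 and 208 in the high libraries (0.44 ± 0.11, adjusted p = 0.00495), but at adjusted p = 0.166 without pool 1 and 0.156 without pool 2 of ATV-TfR, and 0.0547 with doublets kept. In ATV-CD98hc, where 8.77% of genes were called (5.01% higher), Slc6a6 was at 114 and 33.2 CPM in the high libraries (4.15 ± 0.41, edgeR adjusted p = 1.84e-06) and the endothelial markers at 448 and 1062. Its difference was 2.69 (adjusted p = 0.0428) without pool 1 of ATV-CD98hc, 4.82 without pool 2, 2.50 (adjusted p = 0.000283) at Leiden resolution 0.5 and 5.79 with doublets kept. Slc7a1 differed by 2.54 ± 0.37 (adjusted p = 1.15e-04), but was at 4.77 with doublets kept, 1.64 (adjusted p = 0.115) without pool 1 of ATV-CD98hc and 0.99 (adjusted p = 0.308) at Leiden resolution 0.5. Slc1a5 differed by 1.88 ± 0.46 (adjusted p = 0.0136) and was at adjusted p = 0.162 and 0.0918 without pool 1 or 2. Slc38a5 was at 2.37 and 4.53 CPM in the high libraries. Over the pools, endothelial-like cells had Slc6a6 at 2232 and Slc7a1 at 664 CPM. They had Slc1a5 at 2.86, Slc1a4 at 2.64 and Slc6a20a at 2.01 CPM. The part of endothelial RNA in these values was not tested, here and in the classes that follow.

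Pericyte-like cells had Slc6a6, Slc38a3 and Slc7a1 higher in both ATVs (2.87% of genes called in ATV-TfR, 2.39% higher, and 1.64% in ATV-CD98hc, 1.43% higher). In ATV-TfR Slc6a6 was at 15.7 and 12.7 CPM in the negative and 239 and 183 in the high libraries (3.89 ± 0.31, edgeR adjusted p = 1.17e-12). Slc38a3 was at 2.30 and 3.16 CPM in the negative and 33.2 and 34.9 in the high libraries, and Slc7a1 at 18.8 and 24.0 CPM in the negative and 77.5 and 82.9 in the high libraries. Slc38a5 was at 14.2 and 19.6 CPM in the high libraries. In ATV-CD98hc Slc38a3 was at 2.30 to 3.40 CPM in the negative and 21.8 to 40.4 in the high libraries, and rests on few UMIs. The endothelial markers in these cells were at 239 and 243 CPM in the negative and 3177 and 3255 in the high libraries of ATV-TfR, and at 299.6 and 349 CPM in the negative and 2074 and 3499.8 in the high libraries of ATV-CD98hc. The pericyte-led carrier was not called. Slc6a20a was at 1369 and 1359 CPM in the negative and 1228 and 1268 in the high libraries of ATV-TfR (-0.10 ± 0.20, interval -0.50 to 0.30). Its levels in ATV-CD98hc were 1568 and 1406 CPM in the negative and 1428 and 1329 in the high libraries (-0.15 ± 0.21, interval -0.57 to 0.27), and in the negative library of control IgG at 1491. Slc1a5 was at 134 and 122 CPM in the negative and 91.8 and 96.0 in the high libraries of ATV-TfR (-0.42 ± 0.25, edgeR adjusted p = 0.775). Its levels went the other way in ATV-CD98hc, at 102 to 123 CPM in the negative and 109 to 202 in the high libraries, and were not called. In ATV-CD98hc the high library of pool 1 had 27 pericyte-like cells, and the calls of Slc7a1, Slc38a3 and Slc6a6 there were lost without one of its pools, Slc7a1 without pool 1 (adjusted p = 0.329, while without pool 2 it was at 3.00 against 2.10), Slc6a6 without pool 2 (2.27 against 3.92, adjusted p = 0.611) and Slc38a3 without either (adjusted p = 0.521 and 0.603). With libraries of at least 50 cells, which leave 1 high library, Slc38a3 was at 2.94 (adjusted p = 0.204) and Slc7a1 at 1.47 (adjusted p = 0.142) there, and DESeq2 and the fit with doublets kept gave Slc38a3 an adjusted p of 0.0526 and 0.0609.

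Choroid plexus epithelial-like cells, which form the barrier between blood and cerebrospinal fluid, had 5 carriers other than Slc38a5 higher in the high bin of both ATVs (24.7% and 31.2% of genes called, 11.1% and 12.8% higher). Slc6a6 differed by 5.23 ± 0.68 in ATV-TfR and 4.52 ± 0.85 in ATV-CD98hc, and Slc7a1 by 3.69 ± 0.52 and 3.33 ± 0.69 (adjusted p = 4.58e-04, and 0.122 without pool 1 of ATV-CD98hc). Without pool 1 or 2 of ATV-TfR, Slc7a1 there was at 2.51 and 4.47. Without pool 1 or 2 of ATV-CD98hc, Slc6a6 was at 3.55 and 5.15, and with doublets kept it was at 4.52 in ATV-TfR and 3.74 in ATV-CD98hc. Slc38a5 was at 21.3 and 8.34 CPM in the high libraries of ATV-TfR and 7.72 and 8.78 in those of ATV-CD98hc. Endothelial markers were at 264 and 328 CPM in the negative and 1675 and 4750.5 in the high libraries of ATV-TfR, and at 139.6 and 221 CPM in the negative and 2089.7 and 2239.9 in the high libraries of ATV-CD98hc. Slc6a20a, at 69.0 and 48.4 CPM in the negative and 88.8 and 135 in the high libraries of ATV-TfR, differed by 0.79 ± 0.22 (edgeR adjusted p = 0.00986), and in ATV-CD98hc, at 38.4 and 57.7 CPM in the negative and 131 and 111 in the high libraries, by 1.19 ± 0.26 (adjusted p = 7.06e-04). Slc38a3 was at 40.6 and 68.4 CPM in the negative and 129 and 96.4 in the high libraries of ATV-TfR (0.96 ± 0.27, adjusted p = 0.00941) and at 51.2 and 57.7 CPM in the negative and 113 and 136 in the high libraries of ATV-CD98hc (0.97 ± 0.30, adjusted p = 0.0126). Slc38a2 was at 26.1 and 26.3 CPM in the negative and 56.4 and 56.5 in the high libraries of ATV-TfR (0.99 ± 0.28, adjusted p = 0.00995, and 0.0806 with doublets kept). In ATV-CD98hc it differed by 0.91 ± 0.33 (adjusted p = 0.0345, 0.0615 by DESeq2, and 0.288 and 0.17 without pool 1 or 2). Of these, Slc6a20a was at 1.38 (adjusted p = 0.00848) without pool 1 and 0.24 (adjusted p = 0.645) without pool 2 of ATV-TfR, and at 0.75 (adjusted p = 0.248) without pool 1 of ATV-CD98hc. Slc38a3 was at 0.39 (adjusted p = 0.569) without pool 1 and 1.55 (adjusted p = 0.00329) without pool 2 of ATV-TfR, and at adjusted p = 0.11 and 0.0839 without pool 1 or 2 of ATV-CD98hc. Slc38a2 in ATV-TfR was at adjusted p = 0.148 without pool 1 and 0.0869 without pool 2. In control IgG, Slc6a20a was at 54.5 CPM in the negative, 126 and 130.1 in the medium and 71.3 and 118 in the high libraries, and Slc6a6 at 0 and 1.36 in the high ones.

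**Figure D5:**
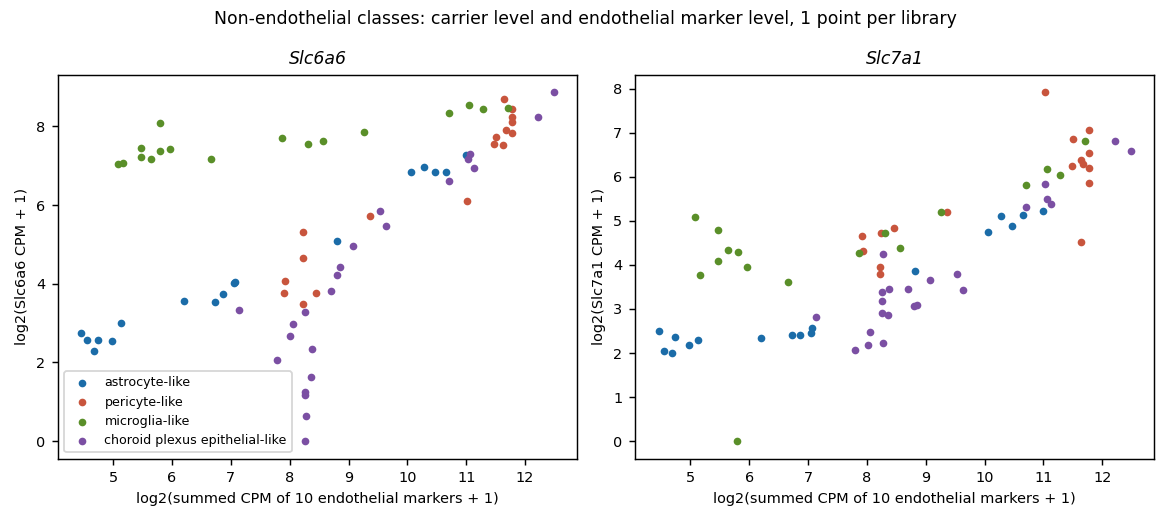
Level of Slc6a6 and Slc7a1, as log2(CPM + 1), against the log2 of the summed CPM of 10 endothelial markers, with 1 point per library, in astrocyte-, pericyte-, microglia- and choroid plexus epithelial-like cells. Points are coloured by class, and bins and treatments are not marked. Within each class the high libraries of ATV-CD98hc lie above and to the right of its negative libraries, in both panels.

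Fibroblast-like cells had 3 carriers lower and 1 higher in the high bin of ATV-CD98hc. There (8.36% of genes called, 4.75% higher and 3.61% lower) Slc6a20a was at 693 and 855 CPM in the negative, 752 and 757 in the low, 363 and 359 in the medium and 30.2 and 73.1 in the high libraries (-3.79 ± 0.36, edgeR adjusted p = 2.54e-07). Slc1a5 was at 252 and 316 CPM in the negative and 31.7 and 31.6 in the high libraries (-3.07 ± 0.34, adjusted p = 1.63e-06). Both calls held without either pool of ATV-CD98hc, although the negative libraries held 29 and 21 cells, with Slc6a20a at -4.39 without pool 2. Slc38a3 was lower as well (-1.82 ± 0.53, adjusted p = 0.0316), but at -1.36 (adjusted p = 0.452) without pool 1 and -2.45 without pool 2, while Slc38a2, at 535 and 132 CPM in the negative and 812 and 1126 in the high libraries, was higher (1.53 ± 0.42, adjusted p = 0.0213) but at 3.06 (adjusted p = 0.000135) without pool 1, 0.73 (adjusted p = 0.243) without pool 2 and 1.00 (adjusted p = 0.0984) with doublets kept. Slc6a6 had 3 UMIs in all in the negative libraries and is given without a call, at 15.7 and 13.2 CPM in the negative and 186 and 355 in the high libraries, with endothelial markers at 992 and 1197 CPM in the negative and 1881 and 3762 in the high libraries.

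The same order was seen in the other treatments, where the high minus negative test was not run. In ATV-TfR, Slc6a20a in fibroblast-like cells was at 986 and 984 CPM in the negative, 29.1 and 59.5 in the low and 24.6 and 35.2 in the medium libraries. In control IgG it was at 902 in the negative, 47.4 and 35.3 in the low, 5.34 and 9.47 in the medium and 2.31 and 8.55 in the high libraries. In ATV-CD98hc the level in the low bin was still near that of the negative one, while in the other treatments the low libraries were already far below. The 8 fibroblast markers in these cells summed to 10840.0 and 11596 CPM in the negative and 4804 and 6562 in the low libraries of ATV-TfR, to 11379.5 and 12482 CPM in the negative and 5986 and 6068 in the low libraries of ATV-CD98hc, and to 7832 CPM in the negative and 4879 and 5612 in the low libraries of control IgG. The class joined clusters of 1266 and 1600 cells, the first led by Slc6a13, Igfbp6 and Prg4 and the second by Coch, Igfbp4 and Lum. Between the negative and high bins of ATV-CD98hc, Slc6a13 differed by -4.91 ± 0.54 (edgeR adjusted p = 1.63e-06). A change in the kinds of fibroblast between bins was not tested.

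The remaining calls were of endothelium-led carriers. In microglia-like cells of ATV-CD98hc (6.08% of genes called, 4.79% higher) Slc6a6 was at 175 and 143 CPM in the negative and 353 and 324 in the high libraries, with Slc7a1 at 26.9 and 19.2 CPM in the negative and 111 and 55.3 in the high libraries. Slc38a5 was at 14.6 and 7.90 CPM in the high libraries. Endothelial markers were at 43.4 and 48.7 CPM in the negative and 1675 and 3337 in the high libraries. With doublets kept, Slc6a6 was at 0.29 (adjusted p = 0.619) and Slc7a1 at 0.26 (adjusted p = 0.856). Without pool 1 of ATV-CD98hc the adjusted p was 0.0526 for Slc6a6 and 0.45 for Slc7a1. In border macrophage-like cells of ATV-TfR (5.73% of genes called, 3% higher) Slc6a6 was at 186 and 154 CPM in the negative and 578 and 453 in the high libraries, Slc7a1 at 20.3 and 6.68 CPM in the negative and 95.6 and 99.4 in the high libraries, and the endothelial markers at 100.1 and 122 CPM in the negative and 2789 and 4881 in the high libraries. Both calls were lost without pool 1 (adjusted p = 0.191 and 0.223, Slc7a1 then at 3.64 against 2.43) or pool 2 (adjusted p = 0.0679 and 0.249) of ATV-TfR. They were also lost with at least 50 cells, where 1 negative library is left (1.22 and 2.00, adjusted p = 0.0643 and 0.159), Slc6a6 with doublets kept (0.51, adjusted p = 0.345), and Slc7a1 by DESeq2 (adjusted p = 0.118) and at Leiden resolution 0.5 (adjusted p = 0.111). In ependymal-like cells of ATV-CD98hc (10.8% of genes called, 3.13% higher) Slc6a6 was at 37.8 and 38.1 CPM in the negative and 654 and 641 in the high libraries (3.98 ± 0.45, edgeR adjusted p = 9.89e-05). Here the endothelial markers were at 1181 and 1238 CPM in the negative and 288 and 1130.2 in the high libraries, whose cells numbered 25 and 20. The leading genes of this class of 946 cells held the pituitary markers Chga and Cga beside the ependymal markers Tmem212 and Ccdc153. At Leiden resolution 0.5 a cluster of 1383 cells led by Tmem212 and Ccdc153 was split, with 50 cells named pituitary. A change in the kinds of cell between bins was not tested.

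Sex was compared within the pools, with cells of the 2 animals told apart by sex-specific genes, and the pool as a block. Endothelial-like cells gave 6 pools (12 animals) and astrocyte-like cells 5 (10 animals), as pool 1 of control IgG had 4 female and 4 male astrocyte-like cells. Cells with UMIs of both sexes' genes or of neither were left out, 30.1% to 43.0% of the endothelial-like and 11.4% to 21.2% of the astrocyte-like cells of a pool used. In endothelial-like cells edgeR called none of the 9 carriers (0.61% of 13927 genes called, 1131 at an unadjusted p under 0.05), while DESeq2 called the X-linked Slc38a5. Female minus male, Slc38a5 had a log2 difference of -0.19 ± 0.04 (edgeR adjusted p = 0.0694, DESeq2 adjusted p = 0.0335), and the X-linked Slc7a3 was at -0.12 ± 0.09 (interval -0.30 to 0.07). Slc6a6 (-0.13 to 0.02), Slc38a3 (-0.14 to 0.06) and Slc7a1 (-0.01 to 0.14) had narrow 95% intervals around 0. In astrocyte-like cells edgeR and DESeq2 called no carrier (0.136% of 16125 genes called by edgeR, 1079 at an unadjusted p under 0.05), with Slc38a2 at 0.26 ± 0.06 (edgeR adjusted p = 0.275).

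Lastly, the genes whose levels followed each carrier most closely were listed, by Pearson's r of log2(CPM + 1) over 87 class-by-pool values in 18 classes, among 14318 genes with at least 20 CPM in 1 class. The values share pools and libraries, and r is given as a description. The closest followers were those of Slc38a5: Tmem252 (r = 0.95), Gm32688 (r = 0.93), Myct1 (r = 0.93). Slc6a20a was followed by Vtn (r = 0.91), Slc16a12 (r = 0.90), Perp (r = 0.90), of which Vtn, encoding vitronectin, was also a marker used to name pericyte-like cells. Slc1a4 was followed by Adcyap1r1 (r = 0.88), Arhgef26 (r = 0.86), Mmd2 (r = 0.85). Slc38a3, split between endothelium and astrocytes, was followed by Shroom4 (r = 0.84), Aqp11 (r = 0.83), Fam181b (r = 0.83). Slc1a5 was followed by Mndal (r = 0.81), Ifi203 (r = 0.79), Limd1 (r = 0.77), and Slc7a3 by Vstm2b (r = 0.78), Tox3 (r = 0.77), A230077H06Rik (r = 0.76). Slc6a6 was followed by Gm35572 (r = 0.72), Tecrl (r = 0.71), Crybg3 (r = 0.71), and Slc7a1 by Tecrl (r = 0.69), Gm32688 (r = 0.68), Mmrn2 (r = 0.67), with Tecrl among both. Slc38a2 had no close follower, with Smad7 (r = 0.60), Foxd2os (r = 0.58), Kcnk5 (r = 0.58).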

How the data were processed

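Single cells of 23 sorted libraries were sequenced. The authors deposited raw UMI counts per gene and cell in 1 matrix, made with Cell Ranger 7.1.0 on mm10/GRCm38 per the submitters' processing notes, which also name Seurat. Barcode, gene and sample index tables, of other units, were deposited with it. Cells with at least 500 genes, 800 UMIs and at most 10% mitochondrial UMIs were kept, and Scrublet scores above the 94th percentile of each library were removed as doublets. Cells were clustered (scanpy 1.11.5, Leiden resolution 1) and named by marker lists. Counts were summed per class and library of at least 20 cells and tested with edgeR 4.0.16 (TMM, quasi-likelihood, Benjamini-Hochberg over all genes, threshold 0.05). All bins and treatments shared 1 fit, and DESeq2 1.42.0 was an alternative. The members and gene lists were chosen with earlier results of these data known. The 9 members were always named, with Slc3a2, Slc7a5 and, per comparison, up to 5 list genes of smallest adjusted p, and Tfrc was named after its values were seen. The comparisons of high with low and medium, of control IgG low with negative, and within arterial- and venous-like cells and subclusters 2, 4, 5 and 7 were added after seeing the data. Same-numbered libraries come from the same animals, as the labels state, and their deviations correlated with r from -0.001 to 0.93 over 8081 genes. On simulated counts of the ATV-TfR high minus negative comparison (14353 genes), 31.0% of log2 changes of 1 and 87.0% of those of 2 were called. The changed genes were drawn from those with a mean log2 CPM of at least 4. These shares do not cover Slc7a3, Slc1a4, Slc1a5 and Slc6a20a, which lay below that level in endothelial-like cells.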

Additional observations from a re-analysis of the deposited data

Results flagged for a closer look

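In 3 of the 23 groups of pools tested for a value far from the rest (the levels of a carrier in a class or subtype), the value that stood apart came from pool 1 of control IgG; chance flags about 1 in 20 groups. Slc38a5 in endothelial-like cells was at 410.2 CPM there, the highest of 6 pools (1835 UMIs in 1034 cells, exact Poisson 95% interval 392 to 429). Slc38a2 in arterial-like cells was at 71.4 CPM (10 UMIs in 41 cells, exact Poisson 95% interval 34.2 to 131) and Slc6a6 in arterial-like cells at 2185 CPM (306 UMIs in 41 cells, exact Poisson 95% interval 1947 to 2444), each the lowest of 6 pools. The intervals cover counting error only. The negative library of this pool was not analysed here, and its part in these values was not tested.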

How the results depend on the processing

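The number of carriers called in ATV-TfR between the high and negative bins (2) was 4 at Leiden resolution 0.5 and 0 to 3 with 1 pool left out. In ATV-CD98hc (2) it was 5 by DESeq2 and 1 to 3 with 1 pool left out, and in the comparison of treatments in the high bin (0) it was 0 to 1. In astrocyte-like cells of ATV-CD98hc (1, low minus negative) it was 2 by DESeq2, 2 without the filter on low counts, 3 with doublets kept and 2 with the replicate block. In the other classes (16 and 23, high minus negative) it was 13 in ATV-CD98hc with at least 50 cells, and with 1 pool left out 10 to 16 in ATV-TfR and 10 to 23 in ATV-CD98hc. These counts include Slc38a5 where it had no UMI, and Slc6a6 in fibroblast-like cells, where it had 3, in the negative libraries. For sex (0) it was 1 by DESeq2 and 1 without the filter in endothelial-like cells, and 1 without the filter in astrocyte-like cells. The number of carriers highest in arterial-like cells (3) was 5 with at least 50 cells, 3 with number 3 added to the capillary-like subclusters and 3 to 5 with 1 pool left out, 5 without pool 1 of control IgG. In subtypes, differences took the other sign for Slc1a5 in subclusters 2, 4, 5 and 7 of ATV-CD98hc, high minus low (0.050, adjusted p = 1 by edgeR, with 3 UMIs in the low libraries), and, near 0, for Slc7a1 (-0.012, high minus low, ATV-CD98hc) and Slc38a5 (-0.017, high minus medium, ATV-TfR) in venous-like cells. The cause was not tested.

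Counts over all genes moved more. High minus negative gave 895 genes in ATV-TfR (1497 by DESeq2, 1600 at Leiden resolution 0.5, 1425 with the replicate block, 290 to 1229 with 1 pool left out), in ATV-CD98hc 597 (1275 by DESeq2, 362 with at least 50 cells, 967 with the replicate block, 284 to 587 with 1 pool left out). The difference between the ATVs gave 0 (5 by DESeq2, 19 without the filter, 4 at Leiden resolution 0.5, 19 with the replicate block, 0 to 12 with 1 pool left out). The high bin gave 29 (50 by DESeq2, 168 without the filter, 12 with at least 50 cells, 10 with doublets kept, 9 in arterial-like cells, 0 in venous-like cells, 0 in subclusters 2, 4, 5 and 7, 0 to 1770 with 1 pool left out). High minus low gave 2090 in ATV-TfR (954 to 2756 with 1 pool left out), in ATV-CD98hc 2253 (3792 with the replicate block, 1331 in arterial-like cells, 372 in venous-like cells, 843 in subclusters 2, 4, 5 and 7, 1902 to 2484 with 1 pool left out). High minus medium gave 1593 in ATV-TfR (2536 with the replicate block, 829 in arterial-like cells, 279 in venous-like cells, 359 in subclusters 2, 4, 5 and 7, 733 to 2152 with 1 pool left out), in ATV-CD98hc 588 (1269 with the replicate block, 146 in arterial-like cells, 58 in venous-like cells, 181 in subclusters 2, 4, 5 and 7, 430 to 568 with 1 pool left out). Control IgG gave 735 (4 in arterial-like cells, 13 in venous-like cells, 225 in subclusters 2, 4, 5 and 7, 502 to 1162 with 1 pool left out). Over all bins, ATV-CD98hc minus control IgG gave 0 (96 by DESeq2, 35 in arterial-like cells, 3 in subclusters 2, 4, 5 and 7, 0 to 133 with 1 pool left out), ATV-TfR minus control IgG 0 (183 by DESeq2, 25 in arterial-like cells, 3 in subclusters 2, 4, 5 and 7, 0 to 128 with 1 pool left out), ATV-CD98hc minus ATV-TfR 0 (12 by DESeq2, 14 in arterial-like cells, 0 to 1 with 1 pool left out). Astrocyte-like cells gave 210 in ATV-TfR (358 without the filter, 52 to 234 with 1 pool left out), in ATV-CD98hc 548 (1068 without the filter, 1006 with doublets kept, 1013 with the replicate block, 347 to 862 with 1 pool left out). Sex gave 85 in endothelial-like cells (377 without the filter, 9 with no replicate block, 54 in arterial-like cells, 38 in venous-like cells, 42 to 117 with 1 pool left out), in astrocyte-like cells 22 (40 by DESeq2, 229 without the filter, 18 to 38 with 1 pool left out). The replicate block changed no calls of carriers other than those given beside the results and 1 more. That was Slc38a5 in astrocyte-like cells of ATV-CD98hc, low minus negative, whose levels are given without a call. High minus negative in control IgG was not run in endothelial-like cells, as its high libraries held 10 and 14 of them. In the other classes it was not among the comparisons, although some had at least 20 cells in both bins. The capillary-like class alone was left out of every comparison because of number 3, and high minus low of ATV-TfR in subclusters 2, 4, 5 and 7 because only 1 low library had at least 20 cells. No pool was left out in the comparisons within subtypes, which were not named again with doublets kept or at Leiden resolution 0.5. The negative bins of the ATVs held few endothelial-like cells, and with at least 50 cells 1 negative library of ATV-CD98hc was left.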
